A study of Mus musculus with 15 samples.

Results

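Mature oligodendrocytes of the mouse prefrontal cortex (PFC) were described here across postnatal age and cocaine self-administration, from single-cell RNA-Seq on the 10X Chromium platform. The cells were those that the authors' deposited annotation placed in a cluster named Oligo, with the cluster number ignored, and they made up 2126 of the 35360 cells retained in the annotation, 1578 of them from P60 mice and 548 from P21 mice. All mice were male C57BL/6N with no engineered allele named, and each library was made from the PFC of 2 pooled mice. The 12 P60 libraries came from mice labelled as 8 to 10 weeks that had self-administered saline or cocaine by the intravenous route. The mice were taken during maintenance, 48 h after withdrawal or 15 d after withdrawal, with 2 libraries for each drug and time. In the paper the catheter was implanted at P60, before self-administration and withdrawal. These mice were therefore older than P60 when taken, and the 15 d libraries came last in that course. The 3 P21 libraries came from mice of 3 weeks with no treatment named in the labels. The methods counted 4 P21 mice for the 3 libraries, so that a mouse may have entered more than 1 of them, and p-values over libraries may measure partly technical spread. The sample labels named another brain region (NAc) in the tissue field while their titles and source named the PFC.

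Oligodendrocytes wrap axons in myelin, a stack of membrane that is rich in cholesterol and galactolipids and is held together by a small set of very abundant proteins. They arise from precursors through a newly formed stage, and in the cortex the making of new myelin is intense in the weeks after birth and slows in the adult. Mature cells then maintain the sheath and feed and clear ions around the axons they wrap.

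The 3 genes that define the mature cell were concentrated in the annotated cells. Levels are given as CPM, the UMIs of a gene over all UMIs of that cell type in the library on the usual CPM scale, computed without 13 mitochondrial and 143 ribosomal protein genes. Aspa, which breaks down N-acetylaspartate supplied by neurons, stood at 1186 ± 216 CPM (SD, n = 6) in mature oligodendrocytes of the P60 saline libraries, against 14.9 ± 5.53 (n = 5) in astrocytes and 7.69 ± 12.1 (n = 5) in newly formed oligodendrocytes. Mog, a protein of the outermost myelin layer, stood at 3096 ± 256 CPM against 287 ± 138 in newly formed oligodendrocytes, and Opalin, a glycoprotein of mature oligodendrocyte membranes, at 2869 ± 654 against 69.0 ± 86.5. In precursors, endothelial cells, microglia and neurons all 3 genes had means at or below 10.6 CPM. At P21 the same order held, with Mog at 5105 ± 819 (SD, n = 3) in mature and 348 ± 35.4 in newly formed cells. Markers therefore matched the label at both ages, with the caveat that the annotation was built from these transcriptomes and the levels are a description.

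The annotation retained 1055 to 4439 cells of the 1215 to 5079 deposited barcodes of a library. Each library held 41 to 355 mature oligodendrocytes, and their median depth per cell was 2690 to 4750 UMIs at P60 and 4164 to 5732 UMIs at P21. The 4 libraries taken at 15 d were deeper per cell (medians of 4330 to 4750 UMIs) than the 8 earlier P60 libraries (2690 to 3980). They also held more transcript of 12 neuron markers in their mature oligodendrocytes, 768 to 1461 CPM in sum against 136 to 443. Of the 548 P21 cells, 36 carried another broad class in a second column of the annotation (14 astrocyte, 12 microglia), whereas 0 of the 1578 P60 cells did, so the age comparison, its comparison with other cell types and the share of cells were also computed without them. Only 2 barcodes were shared between mature oligodendrocytes of different libraries, and 72 of the cells had a barcode that a cell of any type carried in another library. The authors assigned P21 clusters by likeness to P60 clusters, and age, sequencing run and preparation cannot be told apart. The P60 saline mice had also been through food restriction, food training, catheter surgery and saline self-administration. The part of these procedures in the age comparison cannot be told apart from age either.

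The most abundant transcripts of P60 saline cells included many of myelin genes, behind the nuclear RNA Malat1, which was the highest. They also held Fth1, the heavy chain of ferritin. Ptgds, a prostaglandin D2 synthase that also carries lipids, stood at 21494 ± 5280 CPM (SD, n = 6), Mbp, which seals the inner faces of the membrane, at 10374 ± 1124, and Cnp, an enzyme of non-compact myelin, at 10242 ± 776. The 20 highest genes also held Trf, Cldn11, Mobp, Car2, Mal and Mag. Newly formed oligodendrocytes held as much Mbp (10770 ± 3203, n = 5) but 1865 ± 1081 CPM of Ptgds. Hbb-b1, a haemoglobin gene of red blood cells, was among the 20 as well and ran from 45.0 to 14962 CPM over the 6 libraries.

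**Figure D1:**
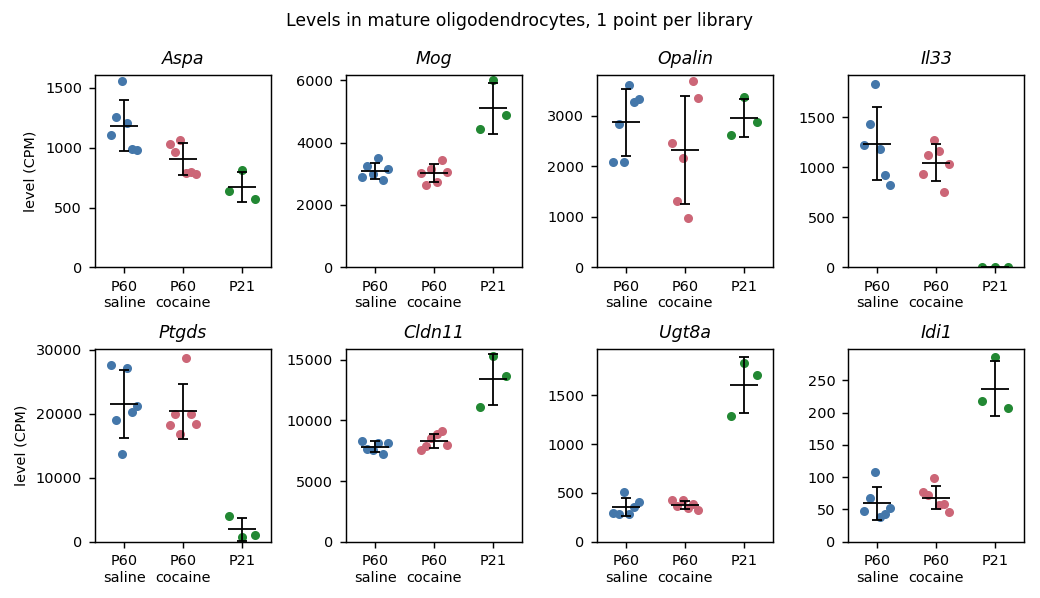
Level of 8 genes in mature oligodendrocytes of each library, in CPM, for P60 saline, P60 cocaine and P21 (each point is 1 library and the bars give mean ± SD). The 3 P21 libraries lie above the P60 saline libraries for Mog, Cldn11, Ugt8a and Idi1, below them for Aspa, Il33 and Ptgds, and among them for Opalin.

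The share of mature oligodendrocytes among non-neuronal cells did not differ detectably with age or drug. It was 9.23% to 22.3% over the 6 P60 saline libraries, with a mean of 15.8% ± 5.52 (SD), and 21.3%, 9.25% and 10.3% in the 3 P21 libraries. The difference of 2.16 percentage points had p = 0.655 in a two-sided exact permutation test over 84 splits, whose smallest possible p is 0.0119, and it was 2.97 points without the 36 cells (p = 0.464, exact permutation test). Cocaine libraries averaged 17.4% ± 7.45 (n = 6), which was 1.62 percentage points above saline (exact permutation test within times, two-sided, p = 0.639, smallest possible 0.00463). Cells lost in dissociation and in the gradient are not counted, so these are shares of captured cells.

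To ask how mature oligodendrocytes differ between the juvenile and the adult PFC, UMIs were summed over the cells of each library and the 6 P60 saline libraries were compared with the 3 P21 libraries by edgeR's quasi-likelihood test. A gene was called when it changed more than 1.5-fold and its p, adjusted by Benjamini and Hochberg, was under 0.05, and log2 changes are given as P60 minus P21 with their SE. Of 5101 genes tested, 910 were called (17.8%), 385 higher (7.55%) and 525 lower (10.3%) at P60, with a median change of 0.02 over all tested genes. The libraries of the ages did not overlap for 1128 genes (22.1%). Changes are relative to the total of each cell sum, and less of a transcript cannot be told apart from more of the others.

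**Figure D2:**
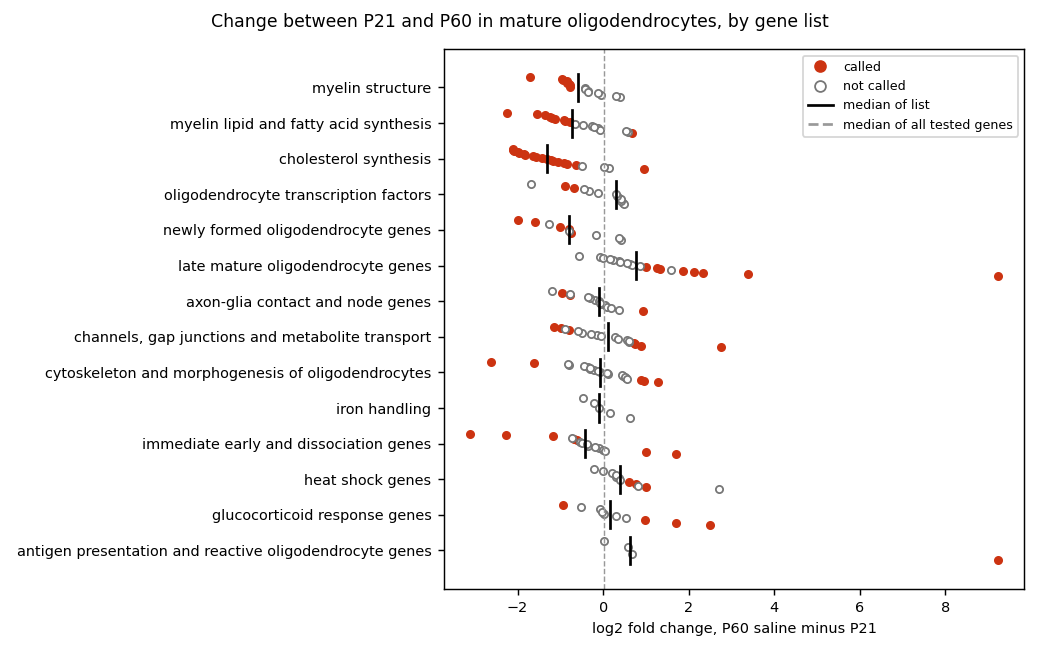
Log2 change between P60 saline and P21 in mature oligodendrocytes for the tested members of each gene list; each point is 1 gene, filled where called, and the line marks the list's median. Cholesterol, lipid and myelin structure genes lie mostly below 0 (medians of -1.32, -0.72 and -0.60), and late mature genes mostly above (median of 0.77).

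Genes for myelin proteins were lower in the adult cells or did not change detectably. Of 16 tested, 8 fell and 0 rose, against 10.3% and 7.55% of all tested genes, with a median change of -0.60. Mog (ENSMUSG00000076439, chr17:37147691-37160343 in the build NCBIM37 used for all gene positions here) ran from 2796 to 3497 CPM with a median of 3076 over the P60 saline libraries and was at 4421, 6012 and 4881 CPM at P21. All 3 P21 libraries lay above all 6 P60 libraries, and the change was -0.80 ± 0.13 (edgeR, adjusted p = 3.22e-04). Cldn11, the claudin of the junctions between myelin layers, behaved alike, with 7195 to 8272 CPM (median 7877) at P60 and 11138, 15308 and 13682 at P21, a change of -0.85 ± 0.12 (adjusted p = 1.06e-04).

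Mbp fell by 0.83 (SE 0.15, edgeR adjusted p = 8.99e-04), Mobp by 0.77 (SE 0.13), the tetraspanin Tspan2 by 0.94 (SE 0.15) and the axon growth inhibitor Omg by 0.76 (SE 0.15). The furthest fall of the list was in Gsn, an actin-severing protein, which had 1559 to 2214 CPM (median 1810.3) at P60 and 4263, 7349 and 5568 at P21 (-1.72 ± 0.16, adjusted p = 1.70e-06). All 8 calls of the list held when any 1 library was left out. Not called were Mag, the adhesion protein that faces the axon, at 4586 to 6553 CPM against 5037, 5569 and 4860 (-0.04 ± 0.14, adjusted p = 0.877), and Opalin (ENSMUSG00000050121, chr19:41136964-41151603), at 2079 to 3607 CPM against 2627, 3373 and 2883 (-0.13 ± 0.17, adjusted p = 0.658). Aspa (ENSMUSG00000020774, chr11:73118494-73140309) moved the other way from Mog. It had 982 to 1562 CPM (median 1158) at P60 and 639, 814 and 573 at P21, a rise of 0.73 ± 0.17 (edgeR adjusted p = 5.71e-03). Aspa was no longer called without P21 replicate 3 (0.61) or with all 12 P60 libraries in place of the saline ones. Summed over the 16 genes, myelin transcripts took 88071 to 103205 CPM at P60 and 135278, 175737 and 155565 CPM at P21, a ratio of 0.624.

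Enzymes that build the galactolipids of myelin were among the genes that fell. Of 18 genes of lipid and fatty acid synthesis, 9 fell and 1 rose (median -0.72), where 10.3% of all tested genes fell and 7.55% rose. Ugt8a (ENSMUSG00000032854, chr3:125568277-125641468), which makes galactosylceramide, had 281 to 505 CPM (median 329) in the P60 saline libraries and 1287, 1835 and 1708 at P21. The groups were far apart, and the change was -2.24 ± 0.17 (edgeR, adjusted p = 3.97e-07). Fa2h, which hydroxylates the fatty acid of that lipid, went from 471, 578 and 580 CPM at P21 to 176 to 249 at P60 (-1.36 ± 0.13, adjusted p = 1.95e-06), and Gal3st1, which adds the sulfate of sulfatide, from 147, 105 and 103 CPM to 36.1 to 52.5 (-1.54 ± 0.19, adjusted p = 2.85e-05). For all 3 enzymes the libraries of the ages were separate. Fasn, the fatty acid synthase, fell by 1.24, and the elongases Elovl6 and Elovl7 by 1.13 and 1.19. The desaturase Scd1 rose by 0.68 with an adjusted p of 0.0482, and this call was lost in 7 of the 9 fits that left out 1 library. Its values were 49.6 to 120 CPM at P60 and 44.0, 34.9 and 48.9 at P21.

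Transcripts of cholesterol synthesis fell for most of the genes tested. The list held 23 genes of the pathway and its regulators, not all of which were tested. Of the 21 tested, 17 fell and 1 rose, against 10.3% and 7.55% of all tested genes, and the median change was -1.32. Idi1, the isomerase that makes the dimethylallyl building block, ran from 38.6 to 108 CPM with a median of 50.3 at P60 and stood at 218, 286 and 207 at P21. The change was -2.10 ± 0.24 (edgeR, adjusted p = 2.63e-05), and the groups did not overlap. Cyp51, which removes a methyl group from lanosterol, had 87.9 to 158 CPM (median 99.0) against 364, 448 and 359 (-1.97 ± 0.16, adjusted p = 3.97e-07). Its libraries were separate between the ages as well.

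Early steps fell in Mvk (-1.65), Pmvk (-0.90), Mvd (-1.32) and Fdps, which makes farnesyl diphosphate (218 to 268 CPM at P60, 609, 650 and 590 at P21, -1.44 ± 0.12, edgeR adjusted p = 5.42e-07). At the commitment to sterols, Fdft1 fell by 1.06, the squalene epoxidase Sqle by 1.98 (72.2 to 131 CPM against 328, 453 and 298) and the cyclase Lss by 1.85 (0 to 23.0 CPM against 38, 72.2 and 42.0). Among the later enzymes Nsdhl fell by 1.17, Hsd17b7 by 1.22, Sc4mol by 0.85 and Sc5d by 0.64. Insig1, a sterol-sensing brake on the pathway, fell by 1.57. The exception among called genes was Srebf1, a transcription factor for lipid genes, which had 22.5 to 66.2 CPM at P60 and 24, 14.9 and 23.3 at P21 (0.96 ± 0.28, adjusted p = 0.0202), a call lost without P21 replicate 2 or 3. Srebf2, the factor best known for driving the cholesterol genes, was at a change of 0.02 and was not called. Summed over the 21 genes, the pathway took 1528 to 1854 CPM in the P60 saline libraries and 3690, 4073 and 3533 at P21, a ratio of 0.452.

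The promoters of 3 of these genes that fell are shown, with a short element, CCAAT or ATTGG on the opposite strand, that was counted over the promoters of the whole list. The 3 were the furthest falls among called genes of the list whose promoter held the element. Its presence in them was therefore fixed by the choice. CCAAT-binding NF-Y is known to work beside the sterol-responsive factors at such promoters. The sequences are from RefSeq on GRCm38.p6, from 250 bases before to 50 after the annotated start, read along the gene, with the element in capitals. They are Idi1 at chr13:8885356-8885655 on the plus strand, Cyp51 at chr5:4104648-4104947 on the minus strand and Lss at chr10:76531355-76531654 on the plus strand.
Idi1: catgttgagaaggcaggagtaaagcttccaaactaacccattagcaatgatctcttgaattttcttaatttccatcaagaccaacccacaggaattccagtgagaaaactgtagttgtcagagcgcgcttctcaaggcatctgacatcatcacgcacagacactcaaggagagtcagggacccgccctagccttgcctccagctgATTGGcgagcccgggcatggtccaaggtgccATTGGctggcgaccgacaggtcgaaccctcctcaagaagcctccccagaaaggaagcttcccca
Cyp51: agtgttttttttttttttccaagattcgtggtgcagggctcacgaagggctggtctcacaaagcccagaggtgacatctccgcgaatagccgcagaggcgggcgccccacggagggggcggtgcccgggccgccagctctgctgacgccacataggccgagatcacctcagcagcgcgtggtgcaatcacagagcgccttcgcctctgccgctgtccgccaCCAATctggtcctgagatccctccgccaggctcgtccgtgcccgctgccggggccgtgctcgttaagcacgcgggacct
Lss: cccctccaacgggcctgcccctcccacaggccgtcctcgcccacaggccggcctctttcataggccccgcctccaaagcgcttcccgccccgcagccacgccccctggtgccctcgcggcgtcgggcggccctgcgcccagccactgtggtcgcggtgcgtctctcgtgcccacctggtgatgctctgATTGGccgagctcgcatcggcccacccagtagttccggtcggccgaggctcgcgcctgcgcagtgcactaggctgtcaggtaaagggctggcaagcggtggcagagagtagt
The element occurred 2 times in the Idi1 window and 1 time in each of the others. Of the 23 listed genes, 17 matched the table, and 18 of their 22 promoters (81.8%) held the element on either strand, called or not, against 12289 of all 32851 promoters (37.4%). A match is a description of these letters, and no binding was measured.

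Of 22 listed genes of newly formed cells, 20 matched the files and 10 passed the filter on low counts, of which 5 fell, 0 rose and 5 were not called (median -0.80), where 10.3% of all tested genes fell and 7.55% rose. With cocaine libraries of 15 d in place of saline 3 of 11 fell, and with 41 cells per library 2 of the 6 that were tested. Enpp6, a choline phosphodiesterase of cells that are starting to myelinate, had 57.5 to 158 CPM at P60 and 184, 174 and 189 at P21 (-1.0 ± 0.24, edgeR adjusted p = 8.52e-03). Gpr17, a receptor that marks the step before myelination, had 0 to 31.2 CPM against 54.5, 52.3 and 86.2 (-1.99 ± 0.48, adjusted p = 0.0115). Of 13 tested transcription factors of the lineage, 2 fell, 0 rose and 11 were not called, with a median of 0.31, which is near the 10.3% of all tested genes that fell. Olig1, a helix-loop-helix factor of the whole lineage, had 143 to 346 CPM (median 212) against 365, 406 and 394 (-0.88 ± 0.21, adjusted p = 8.01e-03), whereas Sox10, the factor that turns on myelin genes, had 187 to 276 CPM against 224, 117 and 112 and was not called (0.47 ± 0.22, adjusted p = 0.151). The 6 marker genes of newly formed cells summed to 100 to 165 CPM at P60 and 246 to 308 at P21, and to 220 to 284 at P21 without the 36 cells of another class.

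Of 20 tested genes of the late mature state, 8 rose, 0 fell and 12 were not called, with a median of 0.77, where 7.55% of all tested genes rose. With the P60 side limited to the saline libraries of 15 d, 5 of 20 rose (median 0.40), and with the cocaine libraries of 15 d in place of saline 3 of 19 (median 0.07). The furthest apart was Il33 (ENSMUSG00000024810, chr19:29999604-30035194), a nuclear alarmin of the interleukin 1 family, which had 822 to 1833 CPM (median 1199.6) over the P60 saline libraries and 2.00, 2.49 and 0 CPM at P21, where 5 UMIs were counted in all 548 cells. The fitted change was 9.23 ± 0.47 (edgeR, adjusted p = 3.11e-07), and the lowest of all 12 P60 libraries, a cocaine library, had 752 CPM.

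Ptgds (ENSMUSG00000015090, chr2:25322229-25325566) had 13653 to 27681 CPM (median 20721) at P60 and 3989, 707 and 1121 at P21. The P21 libraries were far from each other but all below P60, and the change was 3.38 ± 0.64 (edgeR, adjusted p = 9.07e-03), or 4.45 without P21 replicate 1. Qdpr, which regenerates tetrahydrobiopterin, had the tightest values, with 2186 to 2567 CPM against 1128, 1125 and 1086 (1.00 ± 0.13, adjusted p = 2.92e-05). Car2, a carbonic anhydrase, had 3823 to 8317 CPM against 1948, 2701 and 2729 (1.25 ± 0.22, adjusted p = 8.98e-04). Grm3, a glutamate receptor, rose by 1.87 (2.83 without P21 replicate 1), Spock1, a proteoglycan, by 2.13 and the membrane protein Pmp22 by 2.34 (3.60 without P21 replicate 1). Apod, a lipid carrier, had 2037 to 3986 CPM against 1954, 804 and 781 (1.33 ± 0.37, adjusted p = 0.0325), and lost its call in 5 of the 9 fits without 1 library. The iron carrier Trf, at 5415 to 14406 CPM against 6305, 5484 and 4955, and the protease Klk6, at 128 to 248 CPM against 193, 14.9 and 23.3, were not called. With the P60 side limited to the saline libraries of 15 d, Ptgds, Pmp22, Apod and Aspa lost their calls. P21 replicate 1 was the highest of the 3 P21 libraries for Ptgds, Pmp22, Grm3, Apod and Klk6.

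Of 15 tested genes of axon and glia contact, 1 rose and 2 fell, a share near that of all tested genes (7.55% higher and 10.3% lower). Cntn2, an adhesion protein beside the node of Ranvier, rose (235 to 282 CPM against 160, 97.1 and 100; 0.94 ± 0.17, edgeR adjusted p = 7.73e-04), and Omg and Sema6a, a semaphorin (113 to 153 CPM against 194, 269 and 268), fell. Of 18 channels, transporters and metabolic enzymes, 4 rose and 3 fell, beside the same shares of all genes. The rises and falls became 2 and 1 of 19 without P21 replicate 3, 6 and 5 of 18 without P21 replicate 1, and 5 and 1 of 18 without the 36 P21 cells of another class. The furthest rise was in Pex5l, a partner of pacemaker channels, with 382 to 480 CPM against 85.5, 37.3 and 32.6 (2.76 ± 0.24, adjusted p = 1.95e-06). The falls held the lactate transporter Slc16a1 (-0.79, adjusted p = 0.0417), whose call was lost in 6 of the 9 fits without 1 library.

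Of 21 cytoskeleton genes, 3 rose (Stmn4, Mapt and Tubb3) and 2 fell, where 10.3% of all tested genes fell and 7.55% rose. The call on Tubb3 was lost without P21 replicate 2 or 3. It was also lost with equal numbers of cells per library and with cells that had no neuron marker UMI. Marcksl1, an actin-regulating membrane protein, had 20.1 to 82.6 CPM at P60 and 322, 304 and 294 at P21 (-2.62 ± 0.23, edgeR adjusted p = 1.70e-06), and Arpc1b, a subunit of the actin-nucleating Arp2/3 complex, had 314 to 517 CPM against 855, 1277 and 1357 (-1.62 ± 0.16, adjusted p = 1.95e-06). Both groups were fully separated for these genes. Of 5 tested iron genes, 0 rose and 0 fell.

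Immediate early genes, which respond to activity and also to dissociation, were mixed. Of 16 tested, 5 fell and 2 rose (median -0.43), where 10.3% of all tested genes fell and 7.55% rose. Without the 36 P21 cells of another class 3 of 15 fell (median -0.13), and 3 of 16 fell without P21 replicate 2 or 3. Ier2, an early response gene, had 17.2 to 57.5 CPM at P60 and 333, 159 and 154 at P21 (-3.10 ± 0.38, edgeR adjusted p = 2.55e-04), and Junb fell by 2.27, while Fos was not called (-0.11, adjusted p = 0.836). Sgk1, a kinase gene induced by glucocorticoids, had 204 to 586 CPM against 104, 89.6 and 140 (1.71 ± 0.35, adjusted p = 7.27e-03). The calls on Junb and Sgk1 were lost without P21 replicate 1, and Nfkbia, another of the 5 falls, turned from -0.60 to 0.13 without the 36 P21 cells of another class. Of 10 tested glucocorticoid response genes 3 rose, among them the transcription factor Zbtb16 with 25.1 to 57.5 CPM against 6.00, 4.98 and 9.32 (2.51 ± 0.37, adjusted p = 1.16e-04), and 1 fell, beside the same shares of all genes. Without P21 replicate 1, 1 of 11 rose. Of 12 heat shock genes 3 rose (Hsp90aa1, Hspd1 and Dnajb4) and 0 fell (median 0.39), and 5 rose with DESeq2. With the P60 side limited to saline libraries of 15 d, all 3 lost their calls and 1 other gene rose. Hsp90aa1 also lost its call without the 36 P21 cells of another class and without P21 replicate 2 or 3. Of 4 tested genes of antigen presentation and the reactive state only Il33 rose.

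Beyond the lists, the genes with the furthest changes among called genes with separated libraries were mostly of low level. Among the rises, Serpinb1a, a protease inhibitor, had 182 to 608 CPM at P60 and 55.5, 19.9 and 14.0 at P21 (3.29 ± 0.55, edgeR adjusted p = 4.54e-03). Xaf1, an interferon-inducible gene of cell death, had 75.5 to 120 CPM against 8.00, 0 and 9.32 (3.74 ± 0.36, adjusted p = 1.70e-06). Abca8a, a lipid transporter, had 30.6 to 75.3 CPM against 1.5, 0 and 0, which rests on 3 UMIs at P21.

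Among the falls, Bace2, a protease related to beta-secretase, had 0 to 6.88 CPM against 68.5, 89.6 and 51.3 (-4.65 ± 0.41, edgeR adjusted p = 9.45e-07). Barx2, a homeobox factor, had 0 to 9.85 CPM against 63.5, 59.7 and 72.3 (-3.46 ± 0.35, adjusted p = 3.28e-06). Mgp (ENSMUSG00000030218, chr6:136820957-136824326), an inhibitor of calcification, fell furthest, from 104, 109.5 and 280 CPM to 0 to 9.85 (-5.67 ± 0.58, adjusted p = 6.89e-05). Endothelial cells of the same libraries held 576 ± 151 CPM of Mgp at P60 and 358 ± 46.5 at P21. The 9 endothelial and mural markers summed to 15.0 to 107 CPM in mature oligodendrocytes at P60 and to 108 to 441 at P21 (101 to 353 without the 36 cells of another class), and their part in the Mgp result was not tested. C1qc and C1qb, complement genes of microglia, were also among the 15 furthest falls. The 9 microglia markers summed to 49.6 to 90.1 CPM at P60 and 184 to 496 at P21, but to 37.2 to 88.5 at P21 without the 36 cells. C1qb then averaged 13.6 CPM at P21 in place of 69.0, whereas Mgp averaged 182 in place of 164. Astrocyte markers summed to 225 to 512 CPM at P60 and 214 to 545 at P21, but to 93.8 to 143 at P21 without the 36 cells, which lies below all P60 saline libraries.

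To see which age changes were particular to mature oligodendrocytes, the change was compared with that of other cell types in the same libraries by a cell type by age interaction, with the library as a block. The change differed from that of newly formed oligodendrocytes for 101 of 6257 genes (1.61%, with 0.495% higher and 1.12% lower in mature cells), a count that dropped to 61 without P21 replicate 2. It differed from astrocytes for 184 of 7449 (2.47%, with 1.26% higher and 1.21% lower), a count that dropped to 99 without P21 replicate 2 and to 111 without P21 replicate 3, and from endothelial cells for 651 of 9811 (6.64%, with 2.13% higher and 4.51% lower). Against endothelial cells the split of 209 higher and 442 lower became 254 and 365 with the size factors of DESeq2. Without the 36 P21 cells of another class the counts were 92, 209 (126 higher and 83 lower) and 605 (249 higher and 356 lower). Values below are the log2 change in mature oligodendrocytes minus that in the other type.

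For many cholesterol genes the change in mature oligodendrocytes was below that in astrocytes and endothelial cells. It was lower than in astrocytes for 13 of 22 genes (1.21% of all genes) and than in endothelial cells for 16 of 22 (4.51% of all genes), and 0 were higher. Idi1 was at 243 ± 90.0 CPM (SD, n = 5) in P60 saline astrocytes and 158 ± 69.1 (n = 3) in P21 astrocytes, whereas mature oligodendrocytes had 59.6 ± 25.7 (n = 6) and 237 ± 42.9 (n = 3). The difference of the changes was -2.72 ± 0.26 (edgeR, adjusted p = 3.12e-08). Sqle differed by -1.81 and Fdps by -1.51 ± 0.21 from astrocytes, in which Fdps was at 382 ± 70.2 CPM at P60 and 370 ± 62.8 at P21, whereas mature oligodendrocytes had 239.8 ± 18.2 and 616 ± 30.7.

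Against newly formed oligodendrocytes, the nearest type, the change was lower in mature cells for 3 of 21 cholesterol genes, beside 1.12% of all genes. These were Idi1 (-1.35 ± 0.29, edgeR adjusted p = 6.86e-03), Fdps (-0.87 ± 0.21, adjusted p = 0.0222) and Sc4mol (-0.89 ± 0.23, adjusted p = 0.0401). Tested on their own, newly formed cells fell in 3 of 18 cholesterol genes, among them Sqle and Cyp51, where 1.94% of 4693 genes were called (0.746% higher and 1.19% lower). Astrocytes changed in 0 of 22, where 1.11% of 5791 genes were called (0.121% higher and 0.984% lower). Endothelial cells rose in 3 of 21, among them Sc4mol and Srebf2, where 12.7% of 10415 genes were called (5.31% higher and 7.35% lower).

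**Figure D3:**
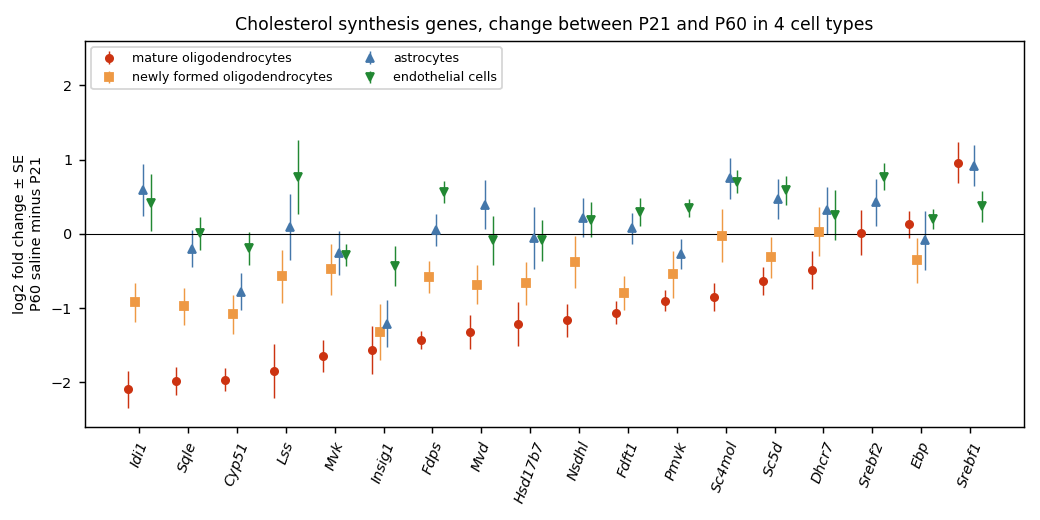
Log2 change ± SE of cholesterol synthesis genes between P21 and P60 saline libraries in mature oligodendrocytes, newly formed oligodendrocytes, astrocytes and endothelial cells, each fitted on its own; genes are in order of their change in mature oligodendrocytes. Mature oligodendrocytes lie lowest from Idi1 (-2.10 ± 0.24) to Sc5d (-0.64 ± 0.19) and reach 0.96 ± 0.28 for Srebf1.

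The change was lower in mature than in newly formed cells for 2 of 16 myelin genes and higher for 0, beside 1.12% and 0.495% of all genes. Omg was one of them (-1.20 ± 0.24, edgeR adjusted p = 3.66e-03). Mbp did not differ detectably between the types (0.42 ± 0.25, adjusted p = 0.571), and newly formed cells had 23746 ± 2330 CPM at P21 against 10770 ± 3203 at P60. Among the 18 lipid genes, Ugt8a (-1.06 ± 0.21, adjusted p = 3.45e-03), Fa2h (-0.88 ± 0.23, adjusted p = 0.0362) and the phospholipase Pla2g16 were lower in this comparison and 0 were higher, beside the same shares of all genes.

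Among late mature genes, the change was higher than in newly formed cells for 0 of 20 and lower for 1 (0.495% and 1.12% of all genes). It was higher than in astrocytes for 6 of 21 and lower for 1 (1.26% and 1.21%). Against endothelial cells 5 of 22 were higher and 0 lower (2.13% and 4.51%). Il33 rose more in mature oligodendrocytes than in astrocytes (7.03 ± 0.47, edgeR adjusted p = 2.39e-12), which had 24.3 ± 18.6 CPM (n = 3) at P21 and 166 ± 79.4 (n = 5) at P60. The other types had means of 27.5 CPM or less at P60. The difference from endothelial cells was not called (7.15, edgeR adjusted p = 0.0620). The difference from newly formed cells had an SE of 10.77 around 2.15 and could not be resolved, since those cells had 0 UMIs at P21. The rise of Ptgds was not distinguishable from the change in newly formed cells (2.73 ± 0.64, adjusted p = 0.144). Nor was it distinguishable from the change in astrocytes (0.75, adjusted p = 0.887) or endothelial cells (1.12, adjusted p = 0.707). The change of Cryab, a small heat shock protein, which was not called with age in mature cells (0.40 ± 0.14), was below that in newly formed cells (-1.44 ± 0.21, adjusted p = 6.30e-05). The change of Barx2 was below that in newly formed cells (-3.22 ± 0.38, adjusted p = 1.11e-06), and the change of Sgk1 was above that in newly formed cells, astrocytes and endothelial cells (differences of 1.5, 3.52 and 2.37).

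Cocaine was compared with saline at each time in 1 fit over the 12 P60 libraries with 6437 genes tested. Of the 21 gene lists, 0 members were called in any of the 4 comparisons. At maintenance 0 genes were called (0% of those tested, 209 at an unadjusted p below 0.05), where DESeq2 called 4. The smallest p-values belonged to Dynll1, a dynein light chain (821 and 1056 CPM with cocaine, 628 and 555 with saline, 0.68 ± 0.17, adjusted p = 0.576), Kctd20, Manf, Hbb-b1 and the chaperone gene Hspa5. Hbb-b1 had 7395 and 5196 CPM with cocaine and 75.6 and 45.0 with saline at maintenance, and 54.1 and 119 CPM with cocaine against 6135 and 3789 with saline at 48 h, so that its direction turned between the times.

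At 48 h 0 genes were called as well (0%, 359 at an unadjusted p below 0.05, 4 by DESeq2). Srsf5, a splicing factor, had 105 and 101 CPM with cocaine and 231 and 281 with saline (-1.29 ± 0.26, edgeR adjusted p = 0.108). Ahsa1, a cofactor of Hsp90, had 558 and 719 CPM against 359 and 381 (0.78 ± 0.18, adjusted p = 0.199). The heat shock list had a median change of 0.50 at 48 h and 0.34 at maintenance, with 6 of its 13 genes at an unadjusted p below 0.05 at each time, and -0.12 with 0 of 13 at 15 d. No member passed the adjusted threshold, and the medians over all genes were 0.00 at 48 h, 0.02 at maintenance and -0.01 at 15 d. The cocaine change differed between times for 0 genes in any of the 3 pairs of times (272, 267 and 330 genes at an unadjusted p below 0.05).

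At 15 d 17 genes were called (0.264% of 6437), all 17 higher with cocaine, with 381 at an unadjusted p below 0.05. Cck (ENSMUSG00000032532, chr9:121398943-121404807), a neuropeptide gene of cortical neurons, had 311 and 327 CPM with cocaine and 50.0 and 96.8 with saline at 15 d, while the other P60 libraries had 5.02 to 22.5 (2.17 ± 0.23, edgeR adjusted p = 1.81e-07). It was called in all 12 fits that left out 1 library and by DESeq2, which called only this gene. Tomm20, a receptor of the mitochondrial outer membrane, had 108 and 112 CPM against 22.5 and 37.8 (1.92 ± 0.31, adjusted p = 6.68e-04). The others with the furthest rises were 2310036O22Rik (1.87), Sdf2l1 (1.84) and Rab11a, a recycling endosome GTPase (1.60). The remaining 12, named after their values were seen, were Pop5, Snf8, Gde1, Tm2d1, Glrx2, Cox4nb, Npdc1, Tmem9b, Tmem151a, Rab14, Ube2d2 and Fkbp1a, with changes of 0.85 to 1.58.

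The count at 15 d hung on single libraries. There were 4 called genes without saline replicate 1 of 15 d, 98 without saline replicate 2 of 15 d, 6 without cocaine replicate 1 of 15 d and 11 without cocaine replicate 2 of 15 d. The same libraries were compared in other cell types, with the caveat that the genes were chosen for being higher with cocaine in mature oligodendrocytes and that abundant members carry a sum. Summed over the 16 genes other than Cck, the level was 3887 and 3378 CPM with cocaine and 1314 and 1958 with saline in mature oligodendrocytes, 3883 and 3614 against 1596 and 2534 in neurons, 1958 and 2109 against 885 and 1324 in astrocytes, 2371 and 2354 against 1052 and 1549 in endothelial cells, and 2188 and 1846 against 866 and 1312 in microglia. In each of these types the sum was higher in both cocaine libraries than in both saline libraries. Gene by gene, this held for 16 of the 16 genes in neurons and in endothelial cells, 15 in astrocytes and 12 in microglia, against 11.6%, 16.7%, 13.9% and 13.8% of all 6437 tested genes in those types. In those types it also held for Cck, which had 3740 and 3171 CPM with cocaine and 455 and 1700 with saline in neurons, 892 and 494 against 126 and 248 in astrocytes, 311 and 187 against 39.1 and 108 in endothelial cells, and 1163 and 561 against 78.3 and 309 in microglia. In newly formed oligodendrocytes it held for 15 of the 16 genes (21.5% of all tested genes) and for Cck. In precursors it held for 12 of the 16 (15.2% of all tested genes) and not for Cck. Precursors had 354 and 148 CPM of Cck with cocaine and 125 and 222 with saline. In P21 mature oligodendrocytes, from mice with no treatment named, the sum was 5839, 3224 and 2902 CPM. For 15 of the 17 genes the highest P21 library was replicate 1, which was the highest for 37.9% of all tested genes. In the age comparison 14 of the 17 were also called, all 14 lower at P60 saline, where 10.3% of all tested genes fell. Neuron markers in the mature oligodendrocytes summed to 1106 and 1461 CPM with cocaine and 1353 and 768 with saline at 15 d, and their part in the Cck result was not tested.

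**Figure D4:**
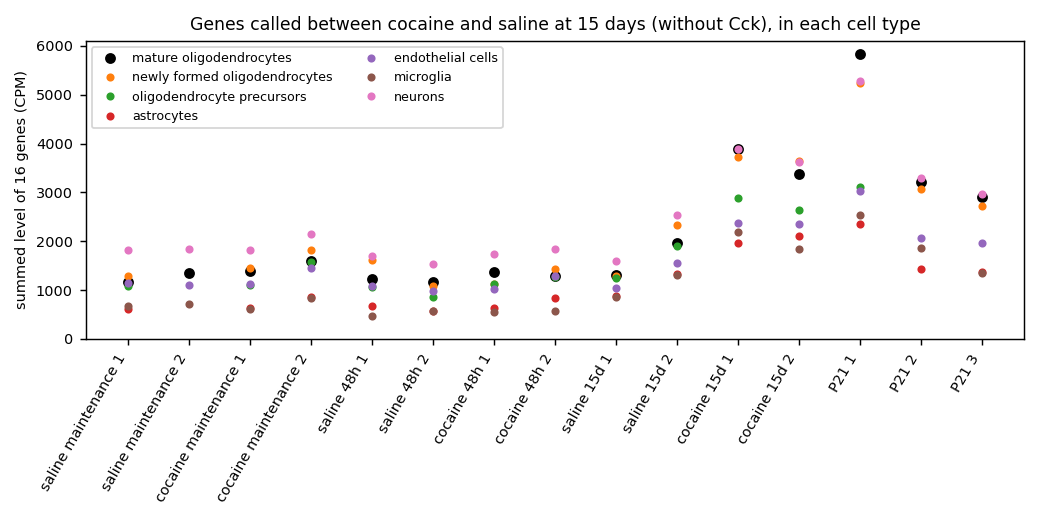
Summed level, in CPM, of the 16 genes other than Cck called higher with cocaine at 15 d, for each library (x axis) and cell type (colour); each point is 1 library and type with at least 10 cells. The cocaine libraries of 15 d lie above the saline libraries of 15 d in each type shown, and P21 replicate 1 reaches 5839 CPM in mature oligodendrocytes.

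Over all 3 times together, 3 genes were called (0.0466% of 6437), 2 higher (0.0311%) and 1 lower (0.0155%) with cocaine, and 378 had an unadjusted p below 0.05. Sdf2l1 (ENSMUSG00000022769, chr16:17130231-17132476), a protein of chaperone complexes in the endoplasmic reticulum, had 68.1 and 83.6 CPM with cocaine and 29.2 and 37.5 with saline at maintenance, 71.0 and 75.0 against 45.2 and 33.1 at 48 h, and 61.0 and 81.0 against 16.3 and 24.6 at 15 d. Cocaine libraries were above saline libraries at each time (1.32 ± 0.21, edgeR adjusted p = 0.00100). Manf (ENSMUSG00000032575), a secreted neurotrophic factor made under endoplasmic reticulum stress, had 251 and 259 CPM against 144 and 158, 257 and 269 against 153 and 143, and 177 and 229 against 117 and 159 at the same times (0.73 ± 0.12, adjusted p = 0.00169).

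Srsf5 (ENSMUSG00000021134, chr12:82046491-82051494) had 212 and 134 CPM with cocaine and 203 and 315 with saline at maintenance, where the groups overlapped, 105 and 101 against 231 and 281 at 48 h, and 185 and 220 against 297 and 276 at 15 d (-0.73 ± 0.13, edgeR adjusted p = 0.00408). All 3 genes stayed called in the 12 fits that left out 1 library, over which Sdf2l1 ranged from 1.21 to 1.42, Manf from 0.65 to 0.80 and Srsf5 from -0.86 to -0.65. DESeq2 called Sdf2l1 (adjusted p = 0.0367) and not Manf (0.0846) or Srsf5 (0.0994). P21 libraries had 107, 32.4 and 23.3 CPM of Sdf2l1. The 3 marker genes were not called, with Aspa at -0.37 ± 0.09 (edgeR adjusted p = 0.153), Mog at -0.03 ± 0.08 and Opalin at -0.36 ± 0.27. Aspa was nonetheless lower in both cocaine libraries than in both saline libraries at each time.

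The authors' annotation split the P60 cells into 13 subclusters of 39 to 243 cells, each with cells from 10 to 12 of the 12 libraries, while P21 cells carried no subcluster number. Since the subclusters were made from these transcriptomes, their leading genes are a description with no test. Levels were pooled over libraries that gave unequal shares of each subcluster and that differed from each other, in Hbb-b1 most of all, and the part of this in the order of the subclusters was not tested. Subcluster 1, with 172 cells, had the most Opalin (5058 CPM) and Mog (4595 CPM) with 1.11 CPM of Klk6, was led by Thbs3, Ctps and Plat, and had a median of 5202 UMIs per cell. Subcluster 2, with 131 cells, was its counterpart, with the least Opalin (933 CPM) and Ptgds (6451 CPM) and the most Klk6 (850 CPM) and Apod (6490 CPM). Klk6 and S100b, a calcium-binding protein, were also among the 3 leading genes of subclusters 3 and 4, behind Ly6g6f and Gm12326, and Gm12326 led subcluster 7 as well.

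Ptgds and Il33 were high in other subclusters. Subclusters 10 and 11 had 32315 and 34777 CPM of Ptgds, and subclusters 5 and 11 had 1705 and 1759 CPM of Il33 against 417 CPM in subcluster 1. Haemoglobin genes were among the leading genes of subclusters 6 and 10, with 20969 and 23064 CPM of Hbb-b1. Other subclusters were led by single genes, such as Fam83d in subcluster 9 (266 CPM against 2.93 in all other mature oligodendrocytes) and Plin4, a coat protein of lipid droplets, in subcluster 13 (311 CPM against 3.32). Neuron genes followed at smaller folds in subcluster 13, among them Nrgn (210 CPM against 81.4), and in subcluster 12, among them Cck (182 CPM against 69.2). The part of neuron transcript in these subclusters was not tested.

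**Figure D5:**
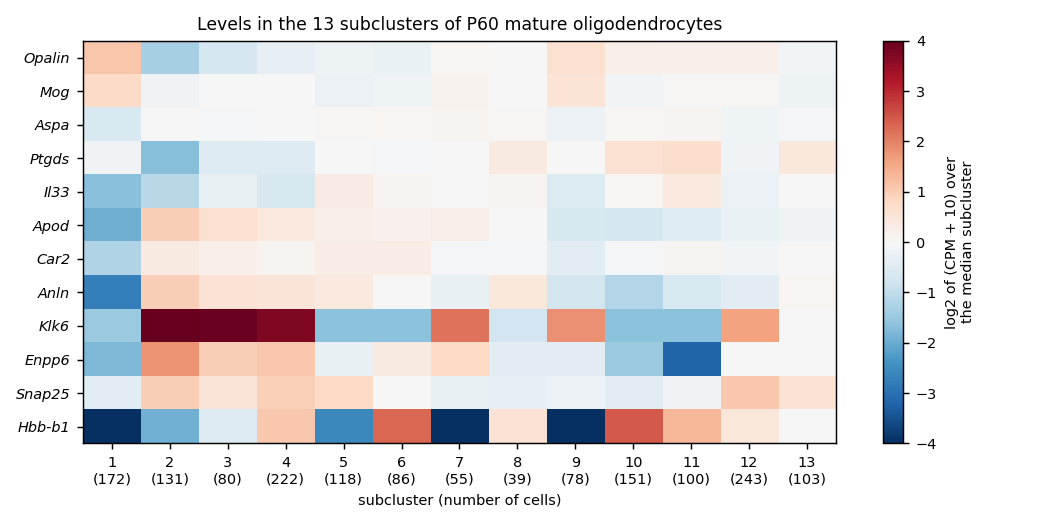
Level of 12 genes (rows) in the 13 P60 subclusters of mature oligodendrocytes (columns, with their number of cells), as the log2 ratio of CPM plus 10 to the median subcluster, with colours limited at 4 in either direction. Opalin is highest in subcluster 1 (5058 CPM) and lowest in subcluster 2 (933 CPM), Klk6 is highest in subcluster 2 (850 CPM), and Hbb-b1 stands out in subclusters 6 and 10.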

How the data were processed

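PFC tissue was dissociated with papain and cells were captured on the 10X Chromium platform. The authors aligned and counted the reads with Cell Ranger on mm9 (NCBIM37) and deposited raw UMI counts per cell, which were used as deposited. They clustered cells with Seurat 2.1.0, removed doublets by a cap on detected genes and by hand, and removed cells over their limit on mitochondrial transcripts. The share of those transcripts was deposited as a fraction per cell. Their deposited annotation of retained cells gave cell types and libraries.

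UMI counts were summed per library and cell type with at least 10 cells. CPM used 25989 of 26145 genes, without 13 genes of the mitochondrial genome and 143 genes for ribosomal proteins, and 304 repeated symbols were told apart by gene ID. Tests used edgeR 4.0.16 (quasi-likelihood, TMM scaling, robust, filterByExpr) in R 4.3.3 on the sums, with libraries as replicates, and were tested on simulated data. Called genes changed more than 1.5-fold at a p under 0.05 after adjustment by Benjamini and Hochberg. Shares were compared by exact permutation tests over all splits, in Python 3.11.15 with numpy 2.4.6. DESeq2 1.42.0, its size factors, no filter on low counts, leaving out each library, all P60 libraries, equal numbers of 41 cells per library and cells without neuron marker UMIs were alternatives. No differences between subclusters were tested. Gene positions came from the annotation of NCBIM37.

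Named genes were the 3 markers, the 20 highest genes of P60 saline libraries, members of 21 gene lists, the 15 furthest rises and falls with age among called genes with separate libraries, the 5 furthest per direction (or 5 smallest p-values) in each cocaine comparison and the 3 leading genes of each subcluster. The cells, lists and rules were chosen with earlier results of these data known. Some genes that the rules name are not reported here, and the plots by gene leave them out.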

Additional observations from a re-analysis of the deposited data

Results flagged for a closer look

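Within groups of 6 libraries, 4 of the 102 groups looked at had 1 library far from the others by Dixon's criterion, where chance gives about 1 in 20. Ptgds reached 28723 CPM in 1 P60 cocaine library, with the others at 16908 to 19989. Pdlim1, a cytoskeletal adaptor among the genes higher at P60, reached 146 CPM in 1 P60 cocaine library, with the others at 57.6 to 80.7. Mgp reached 9.85 CPM in 1 P60 saline library, with the others at 0 to 3.44, which is far below the P21 libraries. Ier2 reached 57.5 CPM in 1 P60 saline library, with the others at 17.2 to 30.0.

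The age change in mature oligodendrocytes differed from that in another type of the same libraries, by the interaction test of edgeR, for 101 genes against newly formed oligodendrocytes, 184 against astrocytes and 651 against endothelial cells.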

How the results depend on the processing

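P60 saline and P21 gave 725 to 993 called genes when 1 library was left out, 765 with DESeq2, 911 with DESeq2 size factors, 1261 with no filter on low counts, 1055 with all 12 P60 libraries, 453 with 41 cells per library, 458 with cells that had no neuron marker UMI and 478 with the cocaine libraries of 15 d in place of saline. Of the 910 genes of the main fit, the last 3 kept 376, 388 and 292. DESeq2 kept 745 and the fit with no filter 830. Without the 36 P21 cells of another class there were 867 (816 of them among the 910), with only the saline libraries of 15 d 624 (456 among the 910) and with only those of maintenance and 48 h 1072 (801 among the 910). These 3 alternatives (the first also for interactions and shares) and the exchange of cocaine for saline libraries were chosen after seeing the data. Over 19 alternatives the cholesterol list kept a median between -1.61 and -1.18 with 10 to 17 genes lower, myelin structure between -0.73 and -0.47, and late mature genes between 0.07 and 1.12 with 3 to 11 higher. Directions that turned were Scd1 (-0.00847 with cocaine 15 d libraries in place of saline), and Nfkbia (0.13 without the P21 cells of another class). The cause was not tested. Cocaine against saline gave, without 1 library, 0 to 4 genes at maintenance, 0 to 7 at 48 h, 4 to 98 at 15 d and 3 to 26 over all times. DESeq2 gave 4, 4, 1 and 1, and no filter on low counts 4, 8, 65 and 15. Interactions gave, without 1 library, 61 to 110 genes against newly formed oligodendrocytes (61 without P21 replicate 2), 99 to 187 against astrocytes (99 without P21 replicate 2, 111 without P21 replicate 3) and 442 to 611 against endothelial cells. Share differences ranged from -0.0114 to 6.01 percentage points for age and from -0.357 to 3.59 for cocaine. With 3 P21 libraries from 4 mice, and 41 cells in the smallest library, genes of low level are poorly resolved. No paired analysis was possible because the replicate numbers were given in accession order and the labels pair no libraries.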
